A study of Mus musculus with 2 samples.

Results

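The 7 miRNAs described here are 5 products of the miR-199 and miR-214 hairpins, called the cluster from here on, and 2 miRNAs of smooth muscle as a contrast. The cluster members are mmu-miR-199a-5p, mmu-miR-199a-3p and mmu-miR-199b-5p, with mmu-miR-214-3p and its opposite arm mmu-miR-214-5p, and the contrast is mmu-miR-143-3p and mmu-miR-145a-5p. The prefix for mouse is left off below. They were taken by name from the 1881 mouse miRNAs on the array, and all 7 were found. The samples were exosomes, small membrane vesicles that cells shed, from the culture medium of Lewis lung carcinoma (LLC) cells, an established mouse lung tumour line. The cells had spent 24 h in serum-free DMEM with 5 µM cisplatin, a DNA-damaging platinum drug. The only group holds 2 samples, 1 from each of 2 independent experiments, each on its own one-colour (Cy3) array (array 1 and array 2). The labels' protocol names a kit that amplifies RNA into labelled cRNA, while the headers of the files give a miRNA protocol for the scan, so which labelling lies behind the intensities is not settled. No untreated group was analysed here, so the values describe which of these miRNAs gave a signal and how far the samples differed, not a response to cisplatin. Both are samples of 1 cell line, and no p-value was computed.

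As background, Mir199a-2 and Mir214 are made from 1 long non-coding transcript, Dnm3os, which runs opposite to the dynamin gene Dnm3 and is driven by the mesenchymal factor Twist1. The cluster is known from fibroblasts and other mesenchymal cells, where miR-199a-5p represses caveolin-1 and promotes fibrosis, and miR-199a-3p represses Met and mTOR. miR-143 and miR-145 come from a separate transcript, Carmn, and hold smooth muscle cells in their contractile state. The cluster is thus a mesenchymal marker, and miR-143 with miR-145 mark its smooth muscle branch.

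The mature sequences are shown because they decide which hairpins a signal can come from. RefSeq sequences (GRCm38.p6) were found by name for 4 of the 5 cluster members, and not for miR-199b-5p. Capitals mark the seed, bases 2 to 8, which pairs with target mRNAs.
miR-199a-5p: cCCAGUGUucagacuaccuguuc
miR-199a-3p: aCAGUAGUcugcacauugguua
miR-199b-3p: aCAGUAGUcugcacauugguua
miR-214-3p: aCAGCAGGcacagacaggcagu
miR-214-5p: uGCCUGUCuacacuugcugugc
The 4 matched members have 4 different seeds. Of the 1608 miRNAs on the array with a RefSeq sequence, only miR-761 shared a seed with 1 of them, that of miR-214-3p, and it was detected on neither array. miR-199a-3p and miR-199b-3p are the same 22 bases, and the array lists them under miR-199a-3p alone. A signal under that name can therefore come from 3 hairpins, Mir199a-1, Mir199a-2 and Mir199b, and one under miR-199a-5p from Mir199a-1 or Mir199a-2.

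The hairpins show both arms in place, with the mature arms listed by RefSeq in capitals. Mir199a-2 lies on the plus strand of chromosome 1 (chr1:162217814-162217923) and Mir214 on the same strand 5444 bases further on (chr1:162223368-162223477), both inside the bounds of Dnm3os and of Dnm3. Mir199b (chr2:32318460-32318569, plus strand) lies inside the bounds of Dnm1, and Mir199a-1 (chr9:21496495-21496564, minus strand) inside those of Dnm2.
Mir199a-2: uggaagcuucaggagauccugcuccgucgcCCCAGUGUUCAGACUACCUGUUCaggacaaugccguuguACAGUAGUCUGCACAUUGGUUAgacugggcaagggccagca
Mir214: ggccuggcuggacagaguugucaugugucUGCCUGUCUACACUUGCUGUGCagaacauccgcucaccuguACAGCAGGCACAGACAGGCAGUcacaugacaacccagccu
Mir199b: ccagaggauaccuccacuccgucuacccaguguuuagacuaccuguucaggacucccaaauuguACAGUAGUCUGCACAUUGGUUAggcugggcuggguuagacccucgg
Placed along the Mir199b hairpin without gaps, miR-199a-5p matched at 22 of its 23 bases. The difference was C10U, counted from the 5′ end of miR-199a-5p with its base first. It lies outside the seed. The probe sequences are not in the files used here, and how far a probe for miR-199a-5p also binds RNA with this change was not tested. Among miRNAs detected on both arrays with a RefSeq sequence, no other shared over 8 bases in a run with the 4 matched members.

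Each array carried 56430 spots for 4415 miRNA probes, and no spot was saturated. A miRNA counts as detected where 1 or more of its probes have a total signal above 3 times the listed error, the rule of the scanner software. By that rule 312 miRNAs (16.6%) were detected on array 1, 202 (10.7%) on array 2 and 201 (10.7%) on both. The 1000 negative-control spots averaged 0.47 ± 2.36 intensity units on array 1 and 1.37 ± 2.81 on array 2 (SD over spots). Their mean plus 3 SD, 7.55 and 9.81, is used below as the level of empty spots. Intensities are background-subtracted, linear and can fall below 0. Values ± SD over spots describe repeat spots of 1 sample, not repeat samples.

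Both arms of miR-199a were detected on both arrays, as were miR-199b-5p and the 3p arm of miR-214. miR-214-5p and both smooth-muscle miRNAs were detected on neither. That is 4 of the 5 cluster members and 0 of the 2 contrast members, against 10.7% of all miRNAs, so that the 0 of 2 is near the background. The members are not independent, since some are arms of 1 hairpin or share a transcript, and the contrast has only 2. Leaving out either array gave the same 4 members, a count that could rise but not fall, since each was detected on both. The count was 2, miR-199a-3p and miR-199b-5p, when more than 50% of a miRNA's spots had to lie well above background on both arrays, and 1, miR-199a-3p, when every probe had to pass.

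miR-199a-3p, the arm that 3 hairpins share, was the only member with every probe detected on both arrays. Its probe 2 read 202 ± 9.45 intensity units on array 1 (15 spots) and 51.3 ± 4.59 on array 2 (15 spots). Its probe 1 read 72.6 ± 4.85 (14 spots) and 17.4 ± 3.56 (15 spots). No spot of either probe on array 1 was as dim as the brightest spot of that probe on array 2, and all spots on both arrays lay above the level of empty spots. The totals of probe 2 were 9.90 times their error on array 1 and 8.68 times on array 2, and those of probe 1 were 9.32 and 5.11 times.

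The 5p arm of the same hairpins, miR-199a-5p, was detected through 1 of its 2 probes. Probe 1 read 34.8 ± 4.50 on array 1 and 11.5 ± 2.87 on array 2 (15 spots each), at 7.76 and 3.66 times its error. On array 2, 10 of the 15 spots lay above the level of empty spots. Probe 2 read only 6.21 ± 2.86 and 1.68 ± 2.81, at 2.16 and 0.58 times its error, and its spots overlapped between the arrays. The detection of miR-199a-5p on array 2 thus rests on 1 probe not far above the threshold of 3.

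miR-199b-5p, from the Mir199b hairpin on another chromosome, was detected by both probes on array 1 and by 1 on array 2. How far its probes also bind miR-199a-5p was not tested. Probe 2 read 117 ± 7.17 on array 1 and 27.3 ± 3.86 on array 2 (15 spots each), with all spots above the level of empty spots. Probe 1 read 33.2 ± 3.36 and 8.84 ± 3.16. Its total on array 2 was 2.90 times its error, just short of the threshold, and 4 of its 15 spots there exceeded the level of empty spots.

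miR-214-3p, the neighbour of miR-199a-2 in Dnm3os, had the same pattern of calls. Probe 2 read 77.7 ± 4.88 on array 1 and 25.7 ± 4.30 on array 2, at 9.40 and 6.59 times its error. Probe 1 read 16.3 ± 3.45 and 5.03 ± 2.92, at 5.02 and 1.70 times. Of the 15 spots of probe 1, all exceeded the level of empty spots on array 1 and 1 did on array 2. In each detected member 1 probe was several times brighter than the other, in the same order on both arrays. The brighter probe exceeded the dimmer 2.78-fold on array 1 and 2.96-fold on array 2 for miR-199a-3p, 3.54- and 3.09-fold for miR-199b-5p, 4.76- and 5.10-fold for miR-214-3p and 5.61- and 6.82-fold for miR-199a-5p. Since brightness depends this much on the probe, the members are not ranked by amount.

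**Figure D1:**
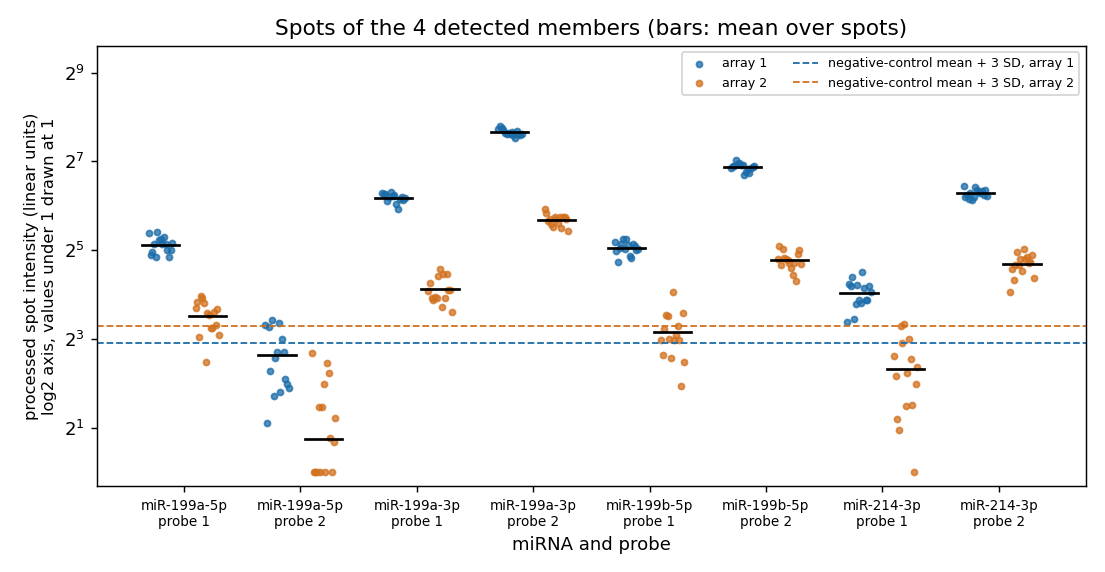
Processed intensity of every spot (points; linear units on a log2 axis, values under 1 drawn at 1) for the 8 probes of the 4 detected members on array 1 and array 2, with outlier spots left out, bars at the mean over spots and dashed lines at the negative-control mean plus 3 SD (7.55 and 9.81). Array 1 is the brighter for every probe, and the spots of miR-199a-5p probe 2 on both arrays, and many of miR-199b-5p probe 1 and miR-214-3p probe 1 on array 2, lie near or under the dashed lines.

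The passenger arm miR-214-5p was the 1 cluster member without a detection call. On array 1 its 27 spots, over 4 probes, averaged 4.84 ± 2.86 intensity units. Of these, 26 exceeded the negative-control mean of 0.47, as did 504 of the 1000 negative-control spots, and 4 exceeded the level of empty spots. On array 2 its 30 spots averaged 0.28 ± 2.98, with 9 above the negative-control mean and 0 above the level of empty spots. The probe totals were 1.21 to 2.27 times their error on array 1 and at most 0.60 times on array 2. The arms of Mir214 thus differed in their calls on both arrays, and those of miR-199a did not.

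The smooth-muscle miRNAs gave no signal that could be told from empty spots. Mean intensities of the 4 probes of miR-143-3p and miR-145a-5p lay between -2.54 and 0.15 over both arrays, and the highest probe total was 0.05 times its error. None of their 59 usable spots on array 1 and 60 on array 2 exceeded the level of empty spots, as against 2 and 5 of the 1000 negative-control spots. For the detected cluster members the numbers were 109 of 119 and 75 of 120. High numbers follow from their choice by detection, so they are no separate contrast. For the undetected cluster member miR-214-5p they were 4 of 27 and 0 of 30. The partner arms miR-143-5p and miR-145a-3p and the paralogue miR-145b were detected on neither array either. Their highest probe total was 1.05 times its error, for miR-145a-3p on array 2. An amount too low for these probes cannot be told from absence, and whether the probes of miR-143 and miR-145 respond was not tested.

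**Figure D2:**
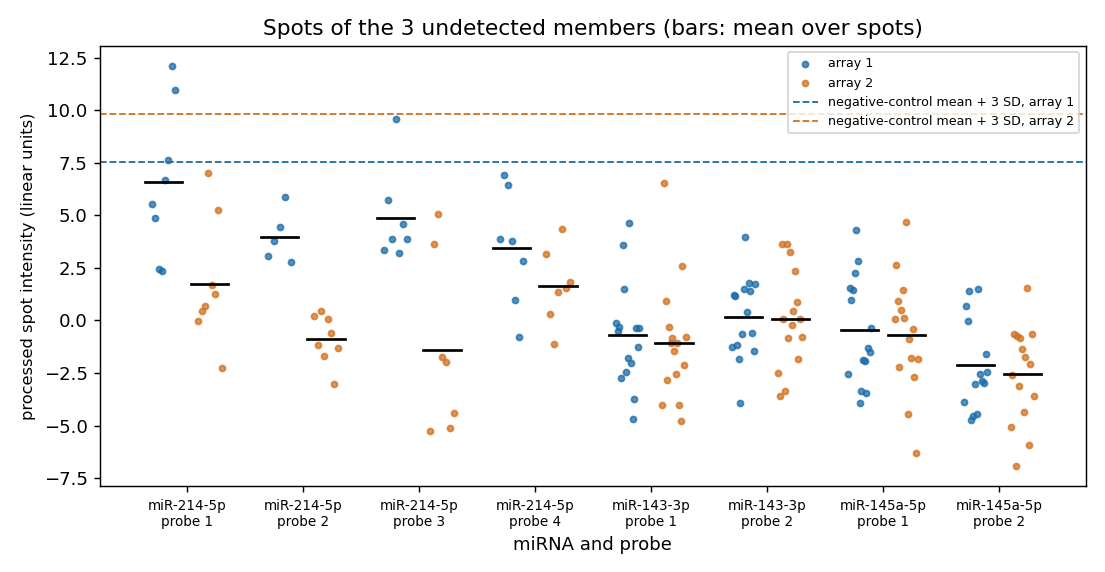
Processed intensity of every spot (points; linear units) for the 8 probes of the 3 undetected members on array 1 and array 2, with outlier spots left out, bars at the mean over spots and dashed lines at the negative-control mean plus 3 SD. On array 1 all 4 bars of miR-214-5p lie above 0 and under the dashed line, and the spots of miR-143-3p and miR-145a-5p scatter about or under 0 on both arrays.

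Before scaling, all 4 detected members were brighter on array 1. Averaged over probes on the unscaled log2 scale, miR-199b-5p was 5.96 on array 1 and 3.91 on array 2, a difference of 2.05. miR-199a-3p was 6.92 and 4.88, a difference of 2.03. miR-214-3p was 5.14 and 3.38, a difference of 1.75, and miR-199a-5p was 3.80 and 2.23, a difference of 1.56. The median difference was 1.89 for the 4 members and 0.78 for the 201 miRNAs detected on both arrays, with quartiles of 0.19 and 1.66. Of the 201, 85 (42.3%) were over 2-fold brighter on array 1, as were 4 of the 4 members. The range spanned by the members, 1.56 to 2.05, held 32 other miRNAs of the 201, so a difference of this size was not particular to the cluster. The 4 of 4 over 2-fold depended on the floor of 1. With intensities under 5 set to 5, the lowest member difference was 0.99 log2 units, just under 2-fold. For the 4 spike-in controls that were detected, the difference was 0.06 to 0.27. The part of sample amount, labelling or exosome content in the members' difference was not tested. Scaling each array on its 75th percentile removed 1.71 log2 units and left -0.15 for miR-199a-5p, 0.04 for miR-214-3p, 0.32 for miR-199a-3p and 0.34 for miR-199b-5p, so that miR-199a-5p changed direction. The scaled directions of miR-199a-5p and miR-214-3p depended on the processing. The difference of miR-199a-5p was 0.04 with the brightest probe alone, 0.70 with quantile normalization and -0.57 with intensities under 5 set to 5. That of miR-214-3p was 0.02, 0.83 and -0.05 in turn. Under these settings miR-199a-3p and miR-199b-5p stayed higher on array 1.

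**Figure D3:**
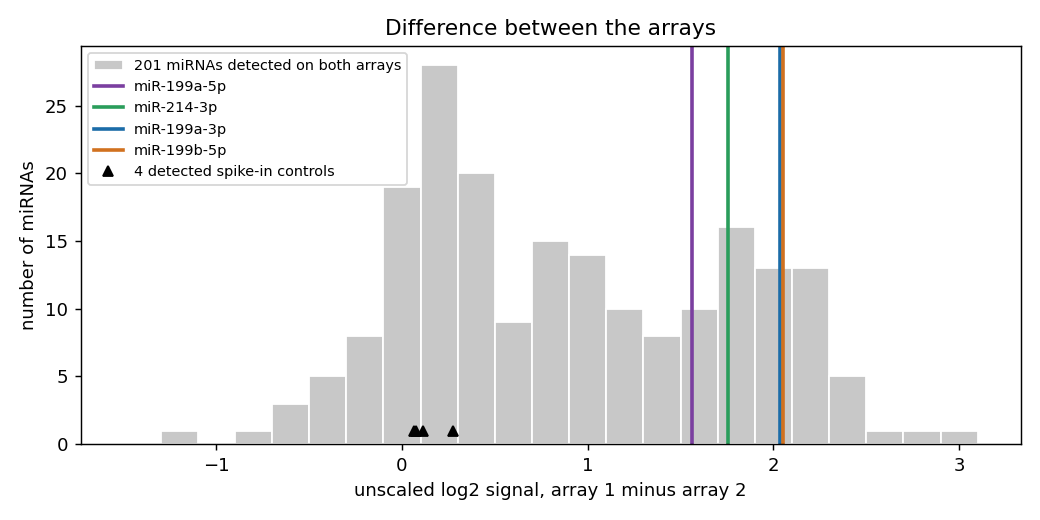
Histogram of the unscaled log2 signal on array 1 minus array 2 for the 201 miRNAs detected on both arrays (grey bars, number of miRNAs), with coloured lines at the 4 detected members and triangles at the 4 detected spike-in controls (their height carries no value). The members lie between 1.56 and 2.05, above the median of 0.78, and the spike-in controls lie between 0.06 and 0.27.

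The ratio of array 1 to array 2 was compared within the cluster. By the brighter probe of each member, the ratio of mean intensities was 4.30 for miR-199b-5p (95% interval over spots 3.98 to 4.65) and 3.93 for miR-199a-3p (3.73 to 4.13), whose intervals overlap. It was 3.04 for miR-199a-5p (2.63 to 3.50) and 3.03 for miR-214-3p (2.77 to 3.31), whose intervals also overlap. No interval of the first pair overlapped one of the second pair. The intervals cover the spread of repeat spots of 1 sample each, which is technical, and are no test of a difference between the members. When each array's negative-control mean was subtracted first, the ratios became 4.51, 4.03, 3.40 and 3.18, in the same order. The intervals of miR-199a-3p (3.82 to 4.24) and miR-199a-5p (2.90 to 3.99) then overlapped. The dimmer probes detected on array 1 had wider intervals, and miR-214-3p was again the lowest. Probe 1 had a ratio of 3.25 (2.38 to 4.44) for miR-214-3p, 3.75 (3.11 to 4.53) for miR-199b-5p and 4.18 (3.75 to 4.66) for miR-199a-3p, with intervals that overlap, and after subtraction the ratios were 4.33, 4.38 and 4.51. The pairs thus stood apart by the brighter probes before subtraction. Of the dimmer probes, that of miR-199a-5p was not detected on array 1 and gave no ratio. The dimmer probes therefore cannot decide whether the pairs stand apart. Whether the members differ in the size of their difference between the arrays was therefore not settled.

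**Figure D4:**
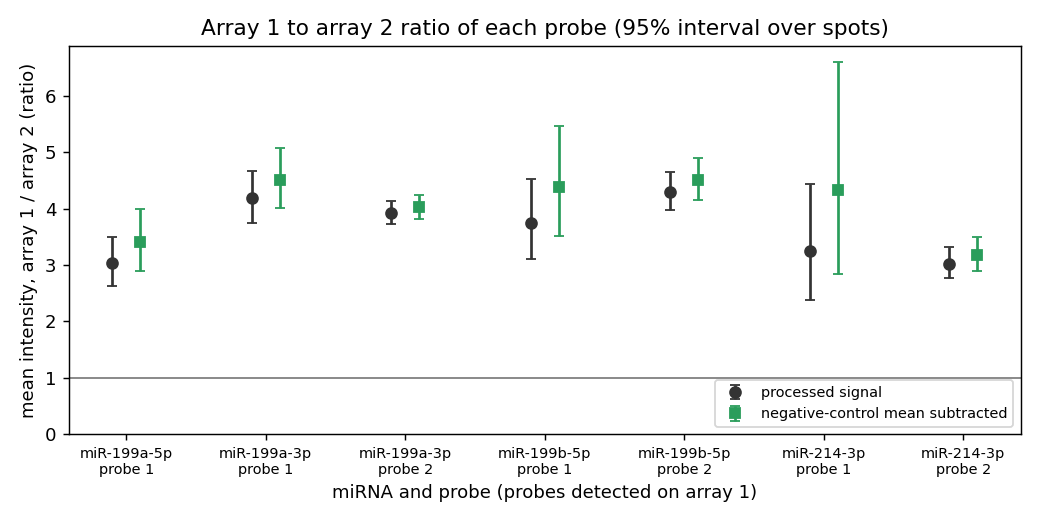
Mean intensity on array 1 divided by that on array 2 for each probe detected on array 1 (circles, processed signal; squares, after subtracting each array's negative-control mean), with 95% intervals over spots. All 7 probes have a processed-signal ratio between 3.03 and 4.30, and the dimmest probes, miR-214-3p probe 1 and miR-199b-5p probe 1, have the widest intervals.

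The total that the scanner software lists for a miRNA misstates 2 of the members on array 2. For miR-214-3p the listed total was 20.0 on array 1 and 30.2 on array 2, which would make array 2 the brighter. Its detected probes summed to 20.0 and 5.45, and the excess of 24.7 on array 2 equals the listed total of miR-2137, the detected name before it in alphabetical order. For miR-199b-5p on array 2 the listed total was 8.22 and its detected probe 5.79, and the excess of 2.43 equals the listed total of miR-199a-5p. The miRNA before each is a different molecule, and in both cases the member's first probe was not detected. Summed over all own probes, the ratio of array 1 to array 2 was 4.17 ± 0.68 for miR-199b-5p, 3.99 ± 0.51 for miR-199a-3p, 3.12 ± 1.09 for miR-199a-5p and 3.06 ± 0.57 for miR-214-3p (propagated error of the listed probe totals). The ranges of these 4 ratios, each plus or minus its error, overlapped, and the ratios were not tested against each other.

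In the authors' deposited table, which holds log2 values of unstated centring, the detected members were again higher on array 1. Its 2 columns share their lowest value (-3.32), which is also the median of each, so the equal medians say nothing about scale. Their highest value (13.25) is also shared, and each has 322 values above the lowest. The arrays thus appear to have been brought to a common scale there by a step that is not stated. Its differences are therefore not unscaled ones. The deposited values on array 1 and array 2 were 4.99 and 4.48 for miR-199a-3p, 4.04 and 2.93 for miR-199b-5p, 3.56 and 2.82 for miR-214-3p, and 2.39 and 1.98 for miR-199a-5p. miR-143-3p and miR-145a-5p stood at the table's lowest value of -3.32 on both. For miR-214-5p the authors' deposited table gives -3.32 on array 1 and -1.25 on array 2, an order opposite to its spots, whose mean was 4.84 on array 1 and 0.28 on array 2. It was detected on neither array by the scanner's rule. Its 4 probe totals summed to 3.33 times their error on array 1 and 0.19 times on array 2.

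Part of the other miRNAs linked to mesenchymal cells and fibrosis gave signal alongside the cluster. Of 21 such miRNAs, 8 were detected on both arrays, against 10.7% of all miRNAs, and another 9 on array 1 only. The 8 had a median difference between the arrays of 1.93, with a range of 1.58 to 2.22. Examples were miR-21a-5p, which promotes fibroblast activation (8.16 and 6.34 on the unscaled log2 scale), miR-29a-3p, a repressor of collagens (7.91 and 5.69), its relative miR-29b-3p (5.38 and 3.34) and miR-22-3p (4.98 and 3.18). Among the 9 seen on array 1 only were miR-10b-5p, miR-27b-3p and miR-155-5p, so 8 of the 17 calls of array 1 were also made on array 2. Over all miRNAs, 201 of the 312 calls of array 1 (64.4%) were, and in the cluster 4 of 4. These shares were not tested against each other. The list was chosen with earlier results of these data known, and its count is a description.

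Neither array detected any of the 7 epithelial miRNAs, among them miR-205-5p and miR-200c-3p. With 10.7% of all miRNAs detected on both arrays, a count of 0 in lists as short as these is near the background and is no result about the cells. The summed mean intensity of the epithelial miRNAs was -1.60 on array 1 and 1.21 on array 2. Such sums depend on the probes and the length of a list, and are not compared between lists. The sum was 10.5 and 2.23 for 6 striated-muscle miRNAs, 7.90 and 2.35 for 2 endothelial miRNAs and 8.21 and 3.20 for 4 red cell miRNAs, of which 0 were detected in each list. Of 5 leukocyte miRNAs, 1 was detected on array 1 and 0 on array 2, with sums of 28.7 and 10.8. That one was miR-142a-3p, abundant in blood cells, at 4.21 and 1.95 on the unscaled log2 scale. The closest to detection among the rest were the endothelial miR-126a-3p, at 2.83 times its error on array 1, and the muscle miRNA miR-206-3p, at 2.65 times. Whether RNA of other cells had a part in the cluster's signal was not tested.

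**Figure D5:**
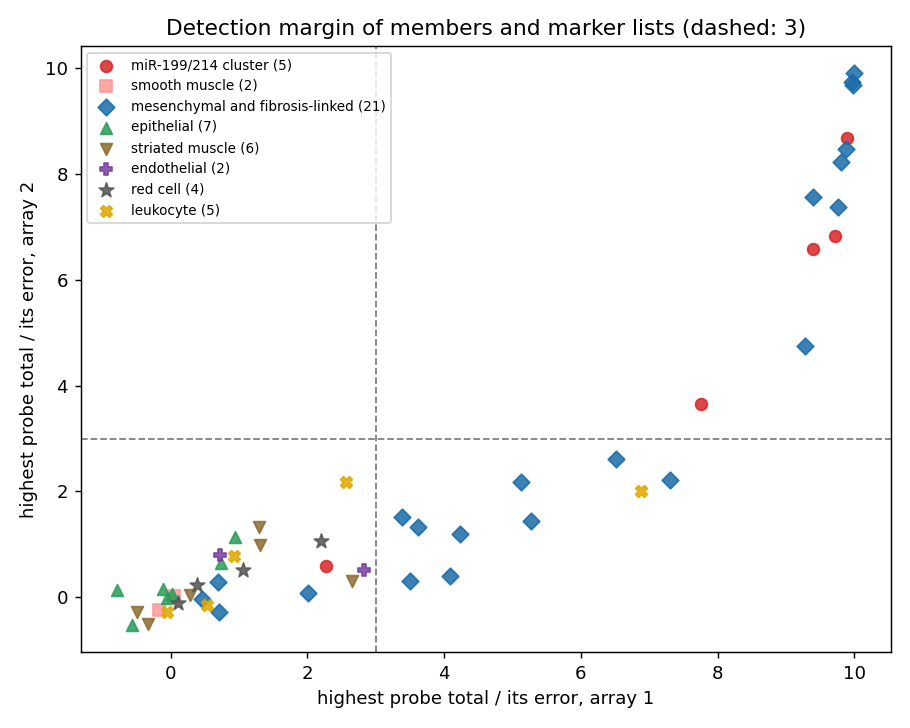
Highest probe total divided by its error on array 1 (horizontal) and array 2 (vertical) for each miRNA of the cluster, the smooth-muscle contrast and 6 other lists (numbers in the key), with dashed lines at the detection threshold of 3. The 4 detected cluster members lie at the upper right with 8 of the mesenchymal and fibrosis-linked list, 9 more of that list and miR-142a-3p pass on array 1 only, and miR-143-3p and miR-145a-5p lie near 0.

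The miRNAs nearest to each detected member in signal, by distance over the unscaled log2 values of both arrays, belonged to other families. They were miR-15b-5p (distance 0.09) and miR-669n (0.20) for miR-199a-3p, miR-669l-5p (0.04) and miR-16-5p (0.11) for miR-214-3p, miR-468-3p (0.17) and miR-6385 (0.24) for miR-199b-5p, and miR-328-5p (0.27) and miR-3547-5p (0.28) for miR-199a-5p. With 2 arrays, such likeness rests on 2 values per miRNA and on how bright each probe is, and it is given only as a description.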

How the data were processed

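Spot intensities on a linear scale were deposited by the authors as Agilent Feature Extraction (version 10.7.1.1 in the file headers and the submitters' processing notes) made them: background-subtracted and detrended within each array, not normalized between arrays. Both arrays share a slide, per the file headers. The flags for outlier and detection are the software's. The authors' deposited table holds log2 values and served only as an alternative. Outlier spots were left out. For the log2 level of a miRNA, intensities under 1 were set to 1, log2 values averaged over spots and then over probes, and the 75th percentile of the 201 miRNAs detected on both was used for each array where scaling is named. A ratio of probe means is on the linear scale, with a 95% interval from the spots' standard errors. Marker lists, the members and the choice of neighbours (the 2 nearest for each detected member) were set with earlier results of these data known. Members, their number-sharing relatives, seed-sharing miRNAs, neighbours and up to 4 detected miRNAs of a list are named; miR-10b-5p, miR-27b-3p, miR-155-5p, miR-142a-3p, miR-126a-3p, miR-206-3p, miR-200c-3p, miR-205-5p and miR-2137 were added after their values were seen. The sequences came from RefSeq (GRCm38.p6). The calculations used Python 3.11.15, numpy 2.4.6, pandas 2.3.3, matplotlib 3.10.9, R 4.3.3 and limma 3.58.1 (normexp). On simulated arrays only the log2 level was tested, and only for bright miRNAs. Detection calls, probe ratios, intervals and scaling were not.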

Additional observations from a re-analysis of the deposited data

How the results depend on the processing

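The number of members detected on both arrays was 4, and 4 to 4 when either array was left out, which could not lower it. It was 2 (miR-199a-3p and miR-199b-5p) when more than 50% of spots had to lie well above background, 1 (miR-199a-3p) when every probe had to pass, and 3, without miR-199a-5p, with a mean over the negative controls by 3 SD or a total over 6 times its error. The shares of all miRNAs called were then 4.68%, 6.17%, 8.35% and 4.52%. The median array difference of the detected members was 1.89 log2 units unscaled, 0.18 after 75th percentile scaling, 0.76 after quantile normalization, 0.61 with normexp and an offset of 50, and 0.63 in the authors' deposited table. It exceeded the median of all detected miRNAs by 1.11, 1.11, 0.99, 0.41 and 0.90 in turn. Subtracting the negative-control mean (2.12) and summing all own probes (1.82), both chosen after seeing the data, moved it by less than the spread over members of 0.24, as did spike-in scaling, the listed total, the brightest probe, kept outlier spots and a floor of 5. Of 44 alternative values of the members' mean scaled signals, 25 moved by less than the SD between the arrays and 19 by more. Part of the 25 was fixed in advance. Leaving out an array, leaving out the scaling or scaling over all miRNAs cannot move a mean of 2 arrays by more than that SD. The count of 25 is therefore no measure of stability. Other summaries change what is averaged, so the mean shifts by construction under the brightest probe, listed total, normexp and deposited table. No paired analysis was possible because there is 1 group. The 2 arrays and the low signal over background on array 2 limit the precision of every value.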
